A study of Mus musculus with 14 samples.

Results

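The genes described here encode the main parts of MHC class I antigen presentation, and there are 10 of them among the 47729 mouse genes of the count table. They were picked as a list of names, with earlier results of these data known, and each symbol was mapped to 1 Ensembl gene ID. The other gene lists below were also picked with such results known. Their counts beside shares of all genes are therefore no test of a list. H2-K1 and H2-D1 encode the classical class I heavy chains of this strain, and H2-T23 encodes the non-classical chain Qa-1. B2m encodes beta-2 microglobulin, the light chain they share. Tap1 and Tap2 form the peptide transporter of the endoplasmic reticulum, Tapbp encodes tapasin, Psmb8 and Psmb9 encode inducible catalytic subunits of the immunoproteasome, and Nlrc5 encodes a transactivator of class I genes. All 10 had counts and passed the filter on low counts that left 15015 genes for testing.

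Class I molecules carry peptides from proteins cut in the cell to its surface, where CD8 T cells and natural killer cells read them. The proteasome cuts the proteins, the transporter carries the peptides into the endoplasmic reticulum, and tapasin with other chaperones loads them onto a heavy chain paired with beta-2 microglobulin. Nearly all nucleated cells express the pathway, stromal cells of joints included, and interferons, above all interferon gamma, are known to raise most of its genes together.

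RNA was sequenced in 14 libraries, each of 200 to 500 cells sorted from the synovium, the lining, of mouse knee joints. All cells were gated as TER119-, CD31-, CD45- and CD51+, which leaves out red cells, endothelial cells and leukocytes at the sort, and came from C57BL6 mice aged 16 weeks. CD200+CD105- cells of non-immunized mice, which received phosphate buffered saline, gave libraries 1 to 4, and CD200+CD105- cells of mice with antigen-induced arthritis gave libraries 5 to 9. CD200-CD105+ cells of mice with arthritis gave libraries 10 to 14. Arthritis was induced by immunization with methylated bovine serum albumin in complete Freund's adjuvant and an injection of the same protein into the joint, and knees were taken 10 days after that injection. The 3 groups are called non-immunized CD200+, arthritic CD200+ and CD105+ below. All CD105+ cells come from mice with arthritis, and none of the 14 libraries holds CD105+ cells of mice without it. Between CD105+ and non-immunized CD200+ cells, sorted population and arthritis therefore cannot be told apart. The labels do not say which samples come from separate animals, nor whether CD105+ and arthritic CD200+ samples share animals, so these were compared as unpaired and p-values measure the spread between these samples, which may in part be technical.

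Total counts were 12177437 to 40331071 per library. Added ERCC spike-in RNA took 47.5 to 85.4% of them in non-immunized CD200+ libraries, 43.5 to 91.98% in arthritic CD200+ libraries and 20.3 to 55.6% in CD105+ libraries, and it took over 80% in libraries 2, 5 and 6. Counts on mouse genes were 2919666 to 18553803. Levels are given as CPM, the counts of a gene relative to all mouse gene counts of its library, after TMM scaling. Summed levels of 9 osteoblast markers were 35992 to 120519 CPM in non-immunized and 23336 to 42479 CPM in arthritic CD200+ libraries, against 75.3 to 524 CPM in CD105+ libraries. Summed levels of 8 erythroid markers, chiefly globins, were 26677 to 247687 CPM in CD105+ libraries, 1170 to 10123 CPM in non-immunized and 4.23 to 10365 CPM in arthritic CD200+ libraries, although the sort was TER119-. Leukocyte markers were high in some libraries. The 9 markers of B and plasma cells summed to 6904 CPM in library 3 and to at most 87.5 CPM elsewhere. The 8 markers of neutrophils summed to 6906 CPM in library 3, 2271 CPM in library 4 and 1226 CPM in library 11, and to at most 163 CPM in arthritic CD200+ libraries. The 8 markers of macrophages summed to 5730 CPM in library 11 and to at most 280 CPM elsewhere. For T and natural killer cells the 8 markers summed to 1.21 to 60.1 CPM in non-immunized CD200+ libraries. Those sums were 0 to 7.08 CPM in arthritic CD200+ and 0 to 3.46 CPM in CD105+ libraries. Of these markers, Cd3e, Cd3d and Cd3g were at 0 counts in every library. In such bulk samples fewer cells of a type and less RNA per cell cannot be told apart.

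Of the 10 genes, 8 lie on chromosome 17 (GRCm38, GENCODE M21) within 2.12 megabases, from Tapbp at 33915899 to the end of H2-T23 at 36032855. B2m lies on chromosome 2 (122147686 to 122153083, plus strand) and Nlrc5 on chromosome 8 (94434356 to 94527272, plus strand). H2-K1 spans 33996017 to 34000347 on the minus strand and H2-D1 spans 35262730 to 35267499 on the plus strand. The 5 genes that prepare and carry peptides are split between Tapbp and a tight cluster in which Psmb9, Tap1, Psmb8 and Tap2 follow each other from 34181987 to 34216321. RefSeq promoter windows (GRCm38.p6) were found for 8 of the 10, all but Tap2 and Nlrc5. They were searched on both strands, from 250 bases before to 50 bases after the start site, for the interferon-stimulated response element (GAAA, any 2 bases, GAAA), the gamma-activated sequence (TTC, any 3 bases, GAA), a kappa B element (GGGG, then ATT, then CCCC) and the CCAAT box. The sequences below are the 250 bases before the start site, 5′ to 3′ on the gene's strand, and are shown for the 5 genes whose window holds 1 of the first 3 motifs, with that motif in capitals.
H2-K1: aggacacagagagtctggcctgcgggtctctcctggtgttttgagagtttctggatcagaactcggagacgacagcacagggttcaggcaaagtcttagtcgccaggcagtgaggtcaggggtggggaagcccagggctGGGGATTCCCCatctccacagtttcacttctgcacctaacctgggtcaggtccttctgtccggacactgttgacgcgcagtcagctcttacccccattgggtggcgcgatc
H2-D1: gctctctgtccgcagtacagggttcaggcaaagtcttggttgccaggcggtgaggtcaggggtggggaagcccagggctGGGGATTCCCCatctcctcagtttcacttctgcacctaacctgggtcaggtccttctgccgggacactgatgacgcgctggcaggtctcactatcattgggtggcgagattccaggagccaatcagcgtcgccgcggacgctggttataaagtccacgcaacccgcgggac
B2m: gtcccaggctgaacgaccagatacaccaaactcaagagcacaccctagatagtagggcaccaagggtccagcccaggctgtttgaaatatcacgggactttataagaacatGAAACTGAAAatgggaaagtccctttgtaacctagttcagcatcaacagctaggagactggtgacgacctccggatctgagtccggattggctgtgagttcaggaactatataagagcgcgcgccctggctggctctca
H2-T23: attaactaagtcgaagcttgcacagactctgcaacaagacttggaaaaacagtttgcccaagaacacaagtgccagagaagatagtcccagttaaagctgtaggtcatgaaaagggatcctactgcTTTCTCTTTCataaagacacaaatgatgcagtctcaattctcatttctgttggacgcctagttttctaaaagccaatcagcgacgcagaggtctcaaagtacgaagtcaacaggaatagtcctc
Psmb8: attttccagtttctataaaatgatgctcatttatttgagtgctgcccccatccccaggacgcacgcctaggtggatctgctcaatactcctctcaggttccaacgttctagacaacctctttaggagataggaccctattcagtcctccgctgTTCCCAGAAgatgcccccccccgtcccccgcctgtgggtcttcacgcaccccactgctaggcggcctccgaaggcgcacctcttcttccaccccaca

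The kappa B letters were in both classical heavy chain promoters and in 10 of 32851 windows (0.0304%). Of those 10 windows, 3 belong to these 2 genes. The motif was searched with no free base, so its rarity depends on the letters chosen. The letters start at base -111 from the H2-K1 start site used above and at -171 from that of H2-D1. They lie inside a run of 47 bases that the 2 promoters share letter for letter. The response element was in the B2m window, starting at -139, and on the reverse strand in that of H2-T23, at -124, and in 3.44% of all windows. Psmb8 held the gamma-activated sequence at -97, as did 8.3% of all windows. The CCAAT letters were in 7 of the 8 genes' windows, all but Psmb8, and in 37.4% of all. These matches describe letters only. Variants of the letters were not searched, so a window without a match is not shown to lack that kind of element. Tap1 and Psmb9 are read in opposite directions from start sites 226 bases apart, at 34187556 and 34187330, and their windows share 275 bases. Transcripts of the pair overlap by 212 bases in the annotation, and 8 of the 10 genes overlap a gene on the opposite strand, among them B2m, which lies within the span of Patl2. No source used here states whether counting used the strand, and reads of such partners cannot be told apart.

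**Figure D1:**
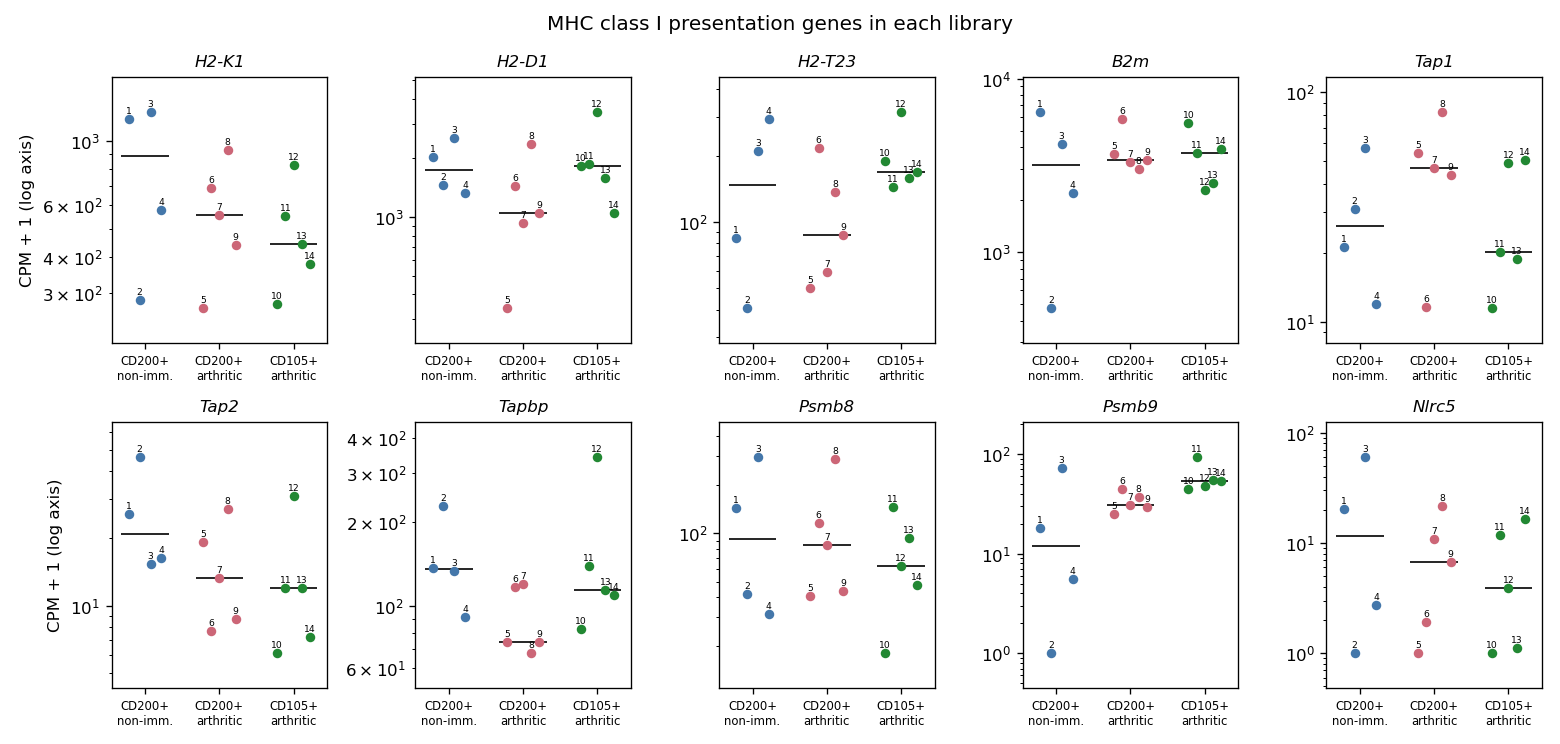
Level of each of the 10 genes in every library, as CPM + 1 on a log axis, by group. Points are libraries with their number, bars are group medians, and in all 10 panels the 3 groups overlap.

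No gene of the 10 passed the test across all genes between arthritic and non-immunized CD200+ cells, between CD105+ and arthritic CD200+ cells, or between CD105+ and non-immunized CD200+ cells. None of these 30 tests reached an adjusted p of 0.05 (edgeR quasi-likelihood test, Benjamini-Hochberg over 15015 genes), and none had an unadjusted p under 0.05. DESeq2 also called 0 of the 10, where it called 347, 3538 and 4039 of 25864 genes in the same order. Between CD105+ and non-immunized CD200+ cells limma voom called 1 of the 10, where it called 4993 of 15015 genes. By edgeR the share of all genes called was 0% between the CD200+ groups and 11.3% between CD105+ and arthritic CD200+ cells (4.79% higher, 6.48% lower). It was 13.2% between CD105+ and non-immunized CD200+ cells (5.57% higher, 7.63% lower). An unadjusted p under 0.05 was found for 6.09%, 26.8% and 29.1% of all genes in the same order. No gene of the 10 had groups whose ranges were apart. Among all genes, ranges were apart for 2.3% between the CD200+ groups (1.13% higher, 1.17% lower), for 16.8% between CD105+ and arthritic CD200+ cells (10.4% higher, 6.31% lower) and for 24% between CD105+ and non-immunized CD200+ cells (12.5% higher, 11.5% lower). Between the CD200+ groups 0 of 10 called equals the share of all genes called. In the comparisons with CD105+ cells the counts of 0 lie below the shares of all genes, and with 10 genes nothing particular to them is read from that. All 30 of the 95% intervals include 0, but many are wide, and a p that misses the threshold does not show equal levels.

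Between the CD200+ groups the log2 changes of the 10 genes ran from -1.42 to 0.66 with a median of -0.53, and 3 were above 0, where the median of all genes tested was -0.10. From arthritic CD200+ to CD105+ cells they ran from -0.68 to 0.83 with a median of -0.14, and 4 were above 0 (median of all genes -0.05). Against non-immunized CD200+ cells the CD105+ changes ran from -1.77 to 1.29 with a median of 0.03, and 5 were above 0 (median of all genes -0.24). The comparisons share groups, so these sets of changes are not independent of each other. Scaling by spike-in counts moved the median of all genes by 1.27 and 1.45 in the 2 comparisons with CD105+ cells, and 10 and 9 of the 10 genes then lay above 0, but 5 and 4 lay above the median of all genes.

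**Figure D2:**
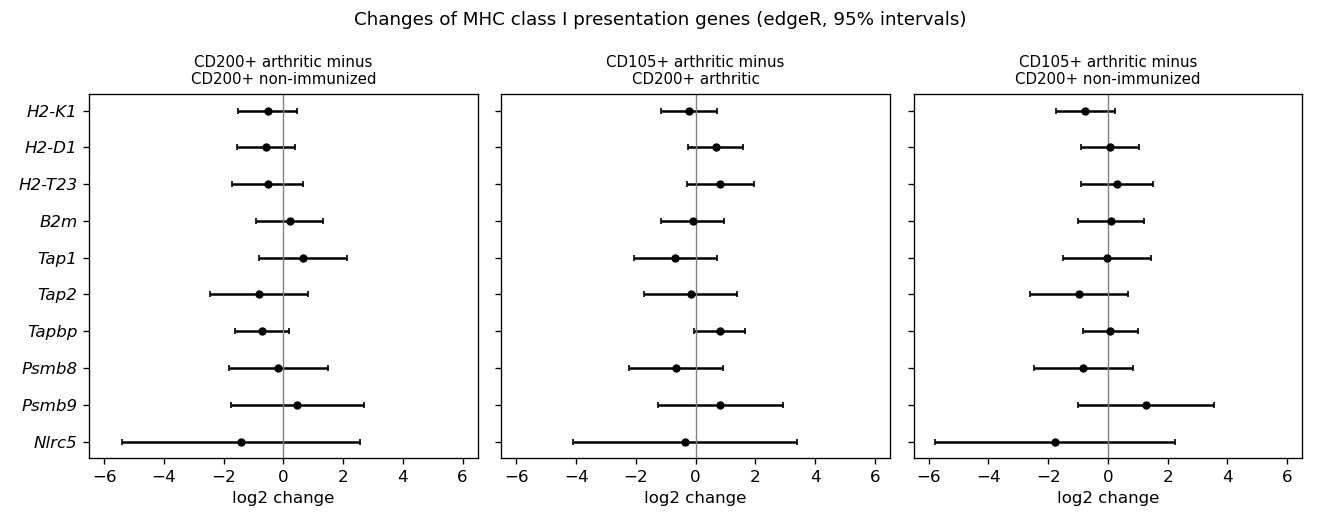
Log2 change of each gene in the 3 comparisons (points) with its 95% interval (lines) from edgeR. Every interval includes 0, and those of Nlrc5 are the widest.

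H2-K1, a classical heavy chain, was read at 1185, 284, 1247 and 579 CPM in non-immunized CD200+ libraries 1 to 4. It was at 266, 686, 556, 927 and 439 CPM in arthritic CD200+ libraries 5 to 9 and at 274, 549, 822, 441 and 377 CPM in CD105+ libraries 10 to 14. Libraries 1 and 3 were the highest and library 5 the lowest, and the groups overlap through libraries 2 and 4. The log2 change was -0.53 between the CD200+ groups (95% interval -1.51 to 0.45, adjusted p = 1), -0.22 from arthritic CD200+ to CD105+ cells (-1.15 to 0.70, adjusted p = 0.807) and -0.75 from non-immunized CD200+ to CD105+ cells (-1.73 to 0.23, adjusted p = 0.306). The last was called by limma voom with sample weights (-1.09, adjusted p = 0.0157). This was the single call of a member gene in 58 combinations of an alternative setting and a comparison. Of these combinations, 19 were for CD105+ against non-immunized CD200+ cells. The limma voom fit called 4993 of 15015 genes in that comparison.

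H2-D1, the other classical heavy chain, was read at 2015, 1448, 2539 and 1325 CPM in non-immunized CD200+ libraries. It was at 339, 1430, 932, 2362 and 1051 CPM in arthritic CD200+ libraries and at 1822, 1868, 3428, 1575 and 1046 CPM in CD105+ libraries. Library 12 was the highest and library 5 the lowest, the same libraries that led and trailed their groups for H2-K1, and 2 arthritic CD200+ libraries lie inside the non-immunized range. The change was -0.59 between the CD200+ groups (-1.56 to 0.38, adjusted p = 1), 0.67 from arthritic CD200+ to CD105+ cells (-0.25 to 1.59, adjusted p = 0.364) and 0.08 from non-immunized CD200+ to CD105+ cells (-0.90 to 1.06, adjusted p = 0.934).

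H2-T23, whose product presents leader peptides of other class I chains to natural killer receptors, was lower in level than both classical chains. It was read at 83.3, 39.7, 209 and 292 CPM in non-immunized CD200+, at 49.2, 216, 58.1, 136 and 86.8 CPM in arthritic CD200+ and at 189, 143, 313, 158 and 169 CPM in CD105+ libraries. All CD105+ libraries lay above 4 of the 5 arthritic ones, and library 6 lay among them. The change from arthritic CD200+ to CD105+ cells was 0.83 (-0.30 to 1.96, adjusted p = 0.354), and it was -0.53 between the CD200+ groups (adjusted p = 1).

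B2m, the light chain, was the most abundant of the 10 genes in every group. It was read at 6373, 472, 4195 and 2174 CPM in non-immunized CD200+ libraries, at 3682, 5824, 3312, 2997 and 3407 CPM in arthritic CD200+ and at 5505, 3712, 2284, 2497 and 3944 CPM in CD105+ libraries. Library 2 stood alone at the low end, 13.5-fold under library 1 of the same group, and the other libraries of all groups lay within one range. The changes were 0.21 (-0.90 to 1.33), -0.10 (-1.15 to 0.95) and 0.11 (-1.004 to 1.22), with adjusted p of 1, 0.934 and 0.916. The direction between the CD200+ groups turned to -0.41 without the libraries over 80% spike-ins, of which library 2 is one.

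Tap1 and Tap2 were low-count genes by comparison. Tap1 was read at 20.3, 30.2, 56.2 and 11.0 CPM in non-immunized CD200+, at 53.2, 10.6, 45.9, 80.8 and 42.7 CPM in arthritic CD200+ and at 10.5, 19.2, 48.4, 17.8 and 49.8 CPM in CD105+ libraries. In arthritic CD200+ cells 4 of 5 libraries lay above 3 of the 4 non-immunized ones, and library 6 lay below them all. The change was 0.66 between the CD200+ groups (-0.82 to 2.14, adjusted p = 1) and -0.68 from arthritic CD200+ to CD105+ cells (-2.07 to 0.70, adjusted p = 0.565).

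Tap2 was read at 24.6, 45.1, 14.3 and 15.4 CPM in non-immunized CD200+, at 18.3, 6.68, 12.2, 26.2 and 7.73 CPM in arthritic CD200+ and at 5.12, 11.0, 30.0, 10.9 and 6.27 CPM in CD105+ libraries. Its highest library was 2, where H2-T23 and B2m were lowest. The changes were -0.80 (-2.44 to 0.83), -0.17 (-1.72 to 1.38) and -0.97 (-2.61 to 0.66), with adjusted p of 1, 0.922 and 0.444.

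Tapbp, tapasin, bridges the transporter and the heavy chain. It was read at 135, 227, 133 and 90.7 CPM in non-immunized CD200+, at 73.6, 116, 119, 66.8 and 73.0 CPM in arthritic CD200+ and at 81.5, 138, 339, 113 and 109 CPM in CD105+ libraries. The arthritic CD200+ values were the most even of the 3 groups, and library 12 stood alone at the high end. Its change of 0.80 from arthritic CD200+ to CD105+ cells (-0.06 to 1.66, edgeR adjusted p = 0.225) had the smallest p of the 30 tests, and it was 0.30 without library 12. The change between the CD200+ groups was -0.71 (-1.62 to 0.19, adjusted p = 1).

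Psmb8 varied most among the genes with a count in every library, over a 17.4-fold range. It was read at 142, 40.6, 295 and 30.3 CPM in non-immunized CD200+, at 39.9, 114, 83.8, 288 and 42.5 CPM in arthritic CD200+ and at 16.9, 144, 61.4, 92.4 and 46.5 CPM in CD105+ libraries. The highest library of each CD200+ group, 3 and 8, was several times the lowest of its own group, so the spread within groups exceeded the differences between them. The changes were -0.17 (-1.83 to 1.49), -0.65 (-2.23 to 0.92) and -0.82 (-2.48 to 0.84), with adjusted p of 1, 0.642 and 0.533.

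Psmb9 was read at 17.2, 0, 71.7 and 4.50 CPM in non-immunized CD200+, at 23.98, 43.7, 29.7, 36.3 and 28.7 CPM in arthritic CD200+ and at 43.4, 91.4, 46.7, 53.5 and 52.9 CPM in CD105+ libraries. Library 2 had 0 counts, which allows up to 0.559 CPM at its depth (3 counts, counting error only). Of the CD105+ libraries, 4 of 5 lay above every arthritic CD200+ library, and library 10 lay just below library 6. The change from arthritic CD200+ to CD105+ cells was 0.82 (-1.27 to 2.92, adjusted p = 0.662) and that from non-immunized CD200+ cells 1.29 (-0.99 to 3.56, adjusted p = 0.471). Without library 3, the one with high B cell and neutrophil markers, the latter was 2.99 (adjusted p = 0.112), so that library sets much of the value.

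Nlrc5, the transactivator, ranged from no count to 940 counts in a library. It was read at 19.4, 0, 58.6 and 1.73 CPM in non-immunized CD200+, at 0, 0.911, 9.84, 20.8 and 5.72 CPM in arthritic CD200+ and at 0, 10.8, 2.87, 0.114 and 15.6 CPM in CD105+ libraries. Libraries 2, 5 and 10 had no count, and library 3 had the highest level. The change between the CD200+ groups was -1.42 (-5.41 to 2.56, adjusted p = 1) and turned to 0.0598 without library 3. The change from non-immunized CD200+ to CD105+ cells was -1.77 (-5.78 to 2.23, adjusted p = 0.581), and -0.27 without library 3.

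Library 3 had the highest H2-K1, Psmb8 and Nlrc5 of all 14 libraries, beside its B cell, plasma cell and neutrophil markers, and library 11 had the highest Psmb9, beside its macrophage markers. Library 12 had the highest H2-D1, H2-T23 and Tapbp, and its markers of B cells and of macrophages were at 0. In library 8, with the second highest Psmb8, B cell markers were at 0 and neutrophil markers at 163 CPM. The part of other cells in these levels was not tested.

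Per kilobase of transcript, B2m was first in each group, with 3841 ± 2966 CPM per kilobase (SD, n = 4) in non-immunized CD200+, 4470 ± 1318 (n = 5) in arthritic CD200+ and 4172 ± 1506 (n = 5) in CD105+ libraries. H2-D1, H2-K1 and H2-T23 followed in that order in all 3 groups, ordered by medians. H2-D1 was at 871 ± 266, 582 ± 356 and 927 ± 423 CPM per kilobase and H2-K1 at 509 ± 290, 355 ± 155 and 304 ± 129. H2-T23 was at 106 ± 78.6, 74.1 ± 46.5 and 132 ± 46.7. Psmb8 and Tapbp came next in the CD200+ groups, at 77.9 ± 75.4 and 50.5 ± 19.8 in non-immunized and at 69.8 ± 62.9 and 30.9 ± 8.80 in arthritic cells. In CD105+ cells Tapbp, Psmb9 and Psmb8 lay close together at 53.9 ± 36.0, 42.6 ± 14.3 and 44.4 ± 29.8. The median of Tap1 lay above that of Tap2 in each group, although Tap2 was the higher in 3 of the 4 non-immunized libraries, and Nlrc5 was last with 2.63 ± 3.59, 0.984 ± 1.12 and 0.774 ± 0.920. Neighbours in this order overlapped in their ranges except Tapbp over Tap1 in non-immunized CD200+, B2m over H2-D1 and H2-K1 over H2-T23 in arthritic CD200+, and B2m over H2-D1 in CD105+ libraries.

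Ratios of 2 genes within a library, as log2 of CPM + 1, depend on scaling only through the added 1 CPM, which matters for a gene near 0 such as Psmb9 in library 2, and 5 of them were compared in 3 comparisons. None of the 15 two-sided exact permutation tests gave a p under 0.05, and the smallest was 0.0794 (adjusted p = 0.387), where the smallest possible values were 0.0159 for 5 against 4 libraries and 0.00794 for 5 against 5. Psmb8 was set against Psmb5, the constitutive subunit it takes the place of. It stood at 46.1, 38.1, 78.3 and 12.4% of Psmb5 in non-immunized CD200+ libraries, at 60.6, 27.3, 29.0, 62.8 and 12.1% in arthritic CD200+ and at 2.36, 29.3, 17.7, 16.2 and 7.82% in CD105+ libraries. CD105+ libraries lay at or below 29.3%, and the CD200+ groups each had 1 library under 20%. The log2 ratio of CD105+ cells differed by -1.56 from that of arthritic and by -1.72 from that of non-immunized CD200+ cells, each with an exact permutation p = 0.0794 and adjusted p = 0.387 (n = 5 and 5, n = 5 and 4).

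Psmb9 relative to Psmb6 differed between CD105+ and arthritic CD200+ cells by 0.44 on the log2 scale (exact permutation p = 0.270, adjusted p = 0.405). Psmb10, the third inducible subunit, relative to Psmb7 differed by -1.27 (exact permutation p = 0.183, adjusted p = 0.387). These 3 differences were not all of 1 sign. H2-K1 relative to B2m differed by -1.11 on the log2 scale between arthritic and non-immunized CD200+ groups (exact permutation p = 0.0794, adjusted p = 0.387), with medians of 12.9% and 28.2% and ranges of 7.22 to 30.9% and 18.6 to 60.2%.

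The 2 classical heavy chains were also set against each other, a ratio chosen after its values were seen and so given with no test. H2-D1 stood at 1.70, 5.10, 2.04 and 2.29 times H2-K1 in CPM in non-immunized CD200+ libraries, at 1.28, 2.08, 1.68, 2.55 and 2.40 times in arthritic CD200+ libraries and at 6.64, 3.40, 4.17, 3.57 and 2.77 times in CD105+ libraries. All 5 CD105+ libraries lay above all 5 arthritic ones, while library 2 of the non-immunized group lay among them. The 2 genes are close paralogues, and no source used here states how reads that match both were assigned.

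**Figure D3:**
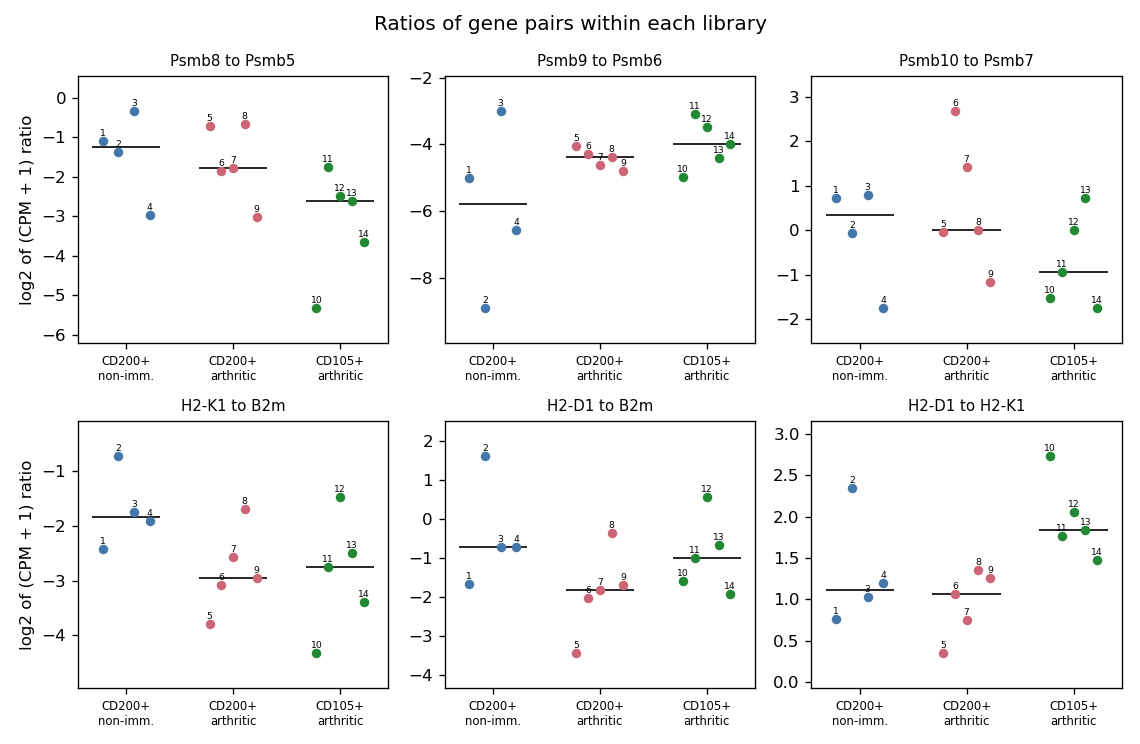
Log2 ratio of CPM + 1 of 2 genes within each library, by group, for the 5 pairs tested and for H2-D1 to H2-K1. Points are libraries with their number and bars are medians; the last panel is the one in which CD105+ libraries all lie above the arthritic CD200+ ones.

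The proteasome core cuts proteins in every cell. Of the 14 genes listed for it, 3 rose from arthritic CD200+ to CD105+ cells (Psmb3, Psma1 and Psma7). From non-immunized CD200+ to CD105+ cells 8 rose, and none fell in either, where 4.79% and 5.57% of all genes were called higher. None of those called was Psmb5, Psmb6 or Psmb7, the constitutive subunits whose places inducible ones take. Between the CD200+ groups edgeR called none, with 4 of the 14 higher and 0 lower at an unadjusted p under 0.05. Of all genes 6.09% had such a p there, in either direction. The medians of the 14 log2 changes were 0.75 and 1.197, against -0.05 and -0.24 over all genes. The list was chosen with earlier results of these data known, so neither its counts nor its medians test it without bias. Psmb3, a core beta subunit, was at 263 ± 81.6 CPM (SD, n = 4), 483 ± 87.8 (n = 5) and 981 ± 320 (n = 5) in non-immunized CD200+, arthritic CD200+ and CD105+ libraries. Its log2 change to CD105+ cells was 1.02 ± 0.27 (SE, edgeR adjusted p = 0.0281) from arthritic and 1.89 ± 0.30 (adjusted p = 0.00171) from non-immunized CD200+ cells. Psma1, a core alpha subunit, changed by 1.17 ± 0.26 (adjusted p = 0.0126) and 1.74 ± 0.29 (adjusted p = 0.00209). Without the libraries over 80% spike-ins Psmb3 and Psma7 missed the threshold against arthritic CD200+ cells (adjusted p = 0.0705 and 0.0537). With spike-in library sizes none of the 14 was called in either comparison, and leaving out single libraries gave 1 to 4 and 5 to 11 calls. The count of 3 fell to 1 without library 7, 10 or 13, and that of 8 to 5 without library 2, 4, 10, 13 or 14. CD105+ libraries are those with high globin levels, whose part was not tested. No test compared the change of the core with that of Psmb8 or Psmb9 across genes.

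Of 5 other genes of inducible subunits, proteasome activators and assembly, Psme1 rose from arthritic CD200+ to CD105+ cells and Pomp from non-immunized CD200+ to CD105+ cells, and none fell. These are 1 of 5 in each, where 4.79% and 5.57% of all genes were called higher. Psme1 encodes a subunit of the PA28 activator, which opens the proteasome. It was at 106, 91.4, 94.3, 123 and 101 CPM in arthritic CD200+ and at 161 to 252 CPM (median 221) in CD105+ libraries, which do not overlap. The change was 1.05 ± 0.22 (SE, edgeR adjusted p = 0.00932). Pomp, the proteasome maturation protein, was at 184 ± 36.1 CPM (SD, n = 4) in non-immunized CD200+ and 471 ± 157 (n = 5) in CD105+ libraries, a change of 1.34 ± 0.36 (edgeR adjusted p = 0.0256) that was lost without library 1, 2, 4, 10 or 13 (adjusted p 0.0505 to 0.0591). Neither call was made with spike-in library sizes (adjusted p = 0.145 and 0.144). Psme2, the partner of Psme1, was at 226 ± 108, 215 ± 39.5 and 279 ± 71.8 CPM and was not called.

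**Figure D4:**
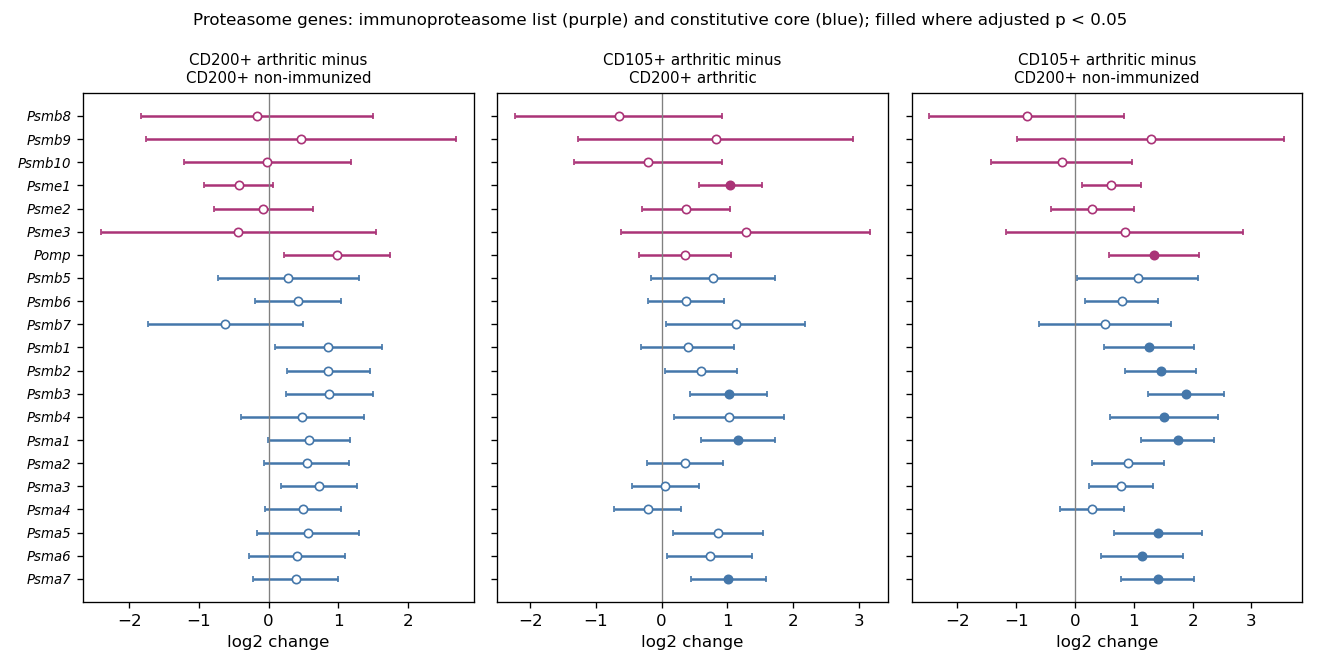
Log2 change with its 95% interval in the 3 comparisons. Shown are 7 genes of inducible subunits, activators and assembly (purple, Psmb8 and Psmb9 included) and 14 of the proteasome core (blue, titled constitutive core). Filled points passed an edgeR adjusted p of 0.05: none in the first comparison, 4 in the second and 9 in the third.

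Of 19 other class I and class I-like chains, 13 passed the filter, and 1 of them fell in CD105+ cells in both comparisons, where 6.48% and 7.63% of all genes were called lower. Called in either direction, the count against non-immunized CD200+ cells was 2 without library 2 and 3 in a fit of those 2 groups. It was 4 with DESeq2 and without the libraries over 80% spike-ins, 5 with limma voom and 0 with spike-in library sizes. Against arthritic CD200+ cells it was 2 with limma voom and 0 with spike-in library sizes. Of all genes, limma voom called 4993 against non-immunized and 4624 against arthritic CD200+ cells, of 15015 tested. DESeq2 called 4039 of 25864 against non-immunized CD200+ cells. Leaving out single libraries, 1308 to 1762 of all genes were called by edgeR in that comparison. With spike-in library sizes 278 were called there, and 545 against arthritic CD200+ cells, of 15015 tested. For the other fits no count of all genes is given. Nothing particular to these chains is read from how their count changed. The chain that edgeR called lower in both was Fcgrt, the neonatal Fc receptor chain. Its product binds immunoglobulin G and albumin and pairs with beta-2 microglobulin but presents no peptide. Fcgrt was at 164, 335, 254 and 98.9 CPM in non-immunized CD200+, at 134, 411, 95.4, 166 and 119 CPM in arthritic CD200+ and at 28.5, 55.5, 40.2, 37.6 and 23.9 CPM in CD105+ libraries. Every CD105+ library lay below every CD200+ library, and the changes were -2.32 ± 0.46 (SE, edgeR adjusted p = 0.00708) and -2.52 ± 0.48 (adjusted p = 0.00492). Both were lost with spike-in library sizes (-0.46 and -0.93, adjusted p = 0.773 and 0.579). Cd1d1, which presents lipids to natural killer T cells, was at 117 ± 86.5, 35.1 ± 29.2 and 4.10 ± 5.68 CPM, and its change of -4.83 between non-immunized CD200+ and CD105+ cells missed the threshold (edgeR adjusted p = 0.0674).

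None of 9 loading chaperones and trimming enzymes was called by edgeR, and 0, 1 and 1 had an unadjusted p under 0.05 in the 3 comparisons. Of all genes 6.09%, 26.8% and 29.1% had such a p. Hspa5, the chaperone BiP, had the smallest p among them, with 669 ± 749, 513 ± 225 and 215 ± 102 CPM and a change of -1.64 ± 0.59 from non-immunized CD200+ to CD105+ cells (edgeR adjusted p = 0.0798). Library 2 held 1782 CPM of it, and the other 3 non-immunized libraries were at 298 ± 124 CPM. Calr, calreticulin, was at 264 ± 89.0, 184 ± 54.0 and 183 ± 69.6 CPM. None of 15 regulators of class I transcription was called by edgeR either. At an unadjusted p under 0.05 there were 0, 1 and 1, each higher in CD105+ cells, against the same shares of all genes. In both comparisons with CD105+ cells 7 of the 15 changes were above 0 and 8 below. Ranges were apart for 1 regulator, higher, against arthritic CD200+ cells (10.4% of all genes). Against non-immunized CD200+ cells they were apart for 3 higher and 1 lower (12.5% and 11.5% of all genes). Irf1, a transcription factor induced by interferon gamma, was at 57.5 ± 43.2, 69.1 ± 60.4 and 15.9 ± 15.6 CPM (a change of -2.12 between arthritic CD200+ and CD105+ cells, edgeR adjusted p = 0.289).

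Of 8 genes for interferon receptor chains, their kinases and the inhibitor Socs1, 1 fell in CD105+ cells in both comparisons, where 6.48% and 7.63% of all genes were called lower. This was Ifngr1. Ifngr1 encodes the ligand-binding chain of the interferon gamma receptor. It was at 316, 374, 134 and 205 CPM in non-immunized CD200+, at 415, 141, 169, 163 and 242 CPM in arthritic CD200+ and at 45.2, 69.8, 94.0, 30.1 and 38.3 CPM in CD105+ libraries, with no overlap. The changes were -2.03 ± 0.42 (SE, edgeR adjusted p = 0.00864) and -2.22 ± 0.44 (adjusted p = 0.00590), and -0.61 and -0.74 with spike-in library sizes (adjusted p = 0.704 and 0.666). Ifngr2, the other chain of the receptor, was at 60.3 ± 24.4, 33.9 ± 33.1 and 12.6 ± 12.9 CPM and was not called.

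Of 20 interferon-stimulated genes outside the pathway, 19 were tested and edgeR called none between the CD200+ groups, where 5 had an unadjusted p under 0.05 (3 higher, 2 lower), as had 6.09% of all genes. In each comparison with CD105+ cells 1 was called, lower against arthritic and higher against non-immunized CD200+ cells, where 6.48% and 5.57% of all genes were called in those directions. Ifitm3, a membrane protein that blocks virus entry, fell by 2.19 ± 0.39 on the log2 scale in CD105+ against arthritic CD200+ cells (edgeR adjusted p = 0.00385), from 3634 ± 2670 to 795 ± 147 CPM. With spike-in library sizes its change was -0.32 (adjusted p = 0.832). Isg15, a ubiquitin-like protein, had no count in any non-immunized CD200+ library and was at 5.35, 1.61, 29.4, 7.98 and 0.59 CPM in CD105+ libraries. Its mean was 168-fold a floor of 3 counts over the non-immunized group, and 72.5-fold without library 12. That floor allows for counting error only, so these folds are no lower limit on the change. With all libraries Isg15 was called (edgeR adjusted p = 0.0420), a call lost on leaving out any single library of the 2 groups (adjusted p 0.0502 to 0.0842). Rsad2, viperin, was at 1.13 ± 2.10 CPM in non-immunized CD200+, 0.884 ± 1.24 in arthritic CD200+ and 33.2 ± 11.5 in CD105+ libraries. Usp18, a brake on interferon signalling, was at 22.9 ± 25.8, 1.45 ± 1.70 and 46.3 ± 20.6 CPM. Its non-immunized range, 0 to 47.7 CPM, overlapped that of CD105+ libraries. Neither of the 2 passed the test between arthritic CD200+ and CD105+ cells (edgeR adjusted p = 0.0660 and 0.0602). Their ranges were apart in that comparison, as for 10.4% of all genes. The 2 called genes of this list moved in opposite directions, each in a different comparison.

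The genes with the pattern most like H2-K1 over the 14 libraries, by Pearson's correlation of log2 CPM, were Gm8979 (0.88), Serpina3g (0.86) and Hvcn1 (0.86). Among the other 9 genes of the pathway, Psmb8 was closest to H2-K1 (0.79, rank 32 of the genes tested), then Nlrc5 (0.76, rank 52) and H2-D1 (0.64, rank 394). B2m was most like Rpp38 (0.94), Ttc32 (0.92) and Rpf2 (0.91), and within the pathway it was closest to Psmb9 (0.82, rank 62, with a Spearman correlation of 0.30) and farthest from Tap2 (-0.62). Library 2 is the lowest for both B2m and Psmb9 and the highest for Tap2. The correlation of B2m with H2-K1 was 0.34. For Psmb8 the most like were Pced1a (0.84), Fes (0.81) and Sult5a1 (0.79), with H2-K1 next at 0.79. These correlations describe 14 libraries that share groups, depth and single libraries such as 2 and 3.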

How the data were processed

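RNA of 14 sorted samples was measured. cutadapt, HISAT2, StringTie and edgeR appear in the submitters' processing notes, with GRCm38 and mm10. The deposited values are raw counts of 47729 genes and 92 spike-ins; a further deposited table, labelled as normalized and filtered, repeats the same counts for 14322 entries and served as an alternative gene filter. Library sizes were the counts on genes. edgeR 4.0.16 (filterByExpr, minimum count 10; TMM) fitted the 14 libraries in 1 robust quasi-likelihood model without pairing, with two-sided p adjusted over 15015 genes (threshold 0.05). SE derives from F, and 95% intervals from SE. Ratios used a pseudocount of 1 and exact permutation tests (SciPy 1.17.1; 126 or 252 splits). Members and lists were chosen with earlier results of these data known. All members are described; of other lists up to 4 genes with the smallest p could be named, and the 3 most correlated genes (prior count 2) are given for H2-K1, B2m and Psmb8. Alternatives were RLE, spike-in library sizes, no filter or 10 CPM in 4 libraries, non-robust shrinkage, 2-group fits, DESeq2 1.42.0, limma voom 3.58.1, and omitted libraries. The model was tested on simulated data.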

Additional observations from a re-analysis of the deposited data

Results flagged for a closer look

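In 48 groups of 4 or 5 values of the member genes and ratios, 6 held a library far from the others by Dixon's test. All 6 were at the high end. Chance flags about 1 in 20 groups where values are normal and groups independent. The values here were not on a log scale, and the groups share genes and libraries. No excess over chance is read from the 6. In CD105+ cells library 12 stood above the others for H2-T23 (313 CPM), Tap2 (30.0 CPM) and Tapbp (339 CPM), and library 11, the one with macrophage markers, for Psmb9 (91.4 CPM). In arthritic CD200+ cells library 6, with 91.98% spike-ins, stood above the others for B2m (5824 CPM). In non-immunized CD200+ cells library 2, with 85.4% spike-ins, had an H2-D1 level of 3.07 times that of B2m in CPM, against 0.316 as the lowest of its group.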

How the results depend on the processing

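No paired analysis was possible because the samples are numbered serially, 1 to 14, and the labels do not say which come from the same animal. None of the 10 member genes was called in any comparison under any alternative except limma voom, which called 1 (H2-K1, CD105+ against non-immunized CD200+ cells). No within-library ratio was called under any. The number of all genes called, 0, 1692 and 1982 in the order arthritic against non-immunized CD200+, CD105+ against arthritic CD200+ and CD105+ against non-immunized CD200+, was 347, 3538 and 4039 with DESeq2, 4, 4624 and 4993 with limma voom, and 545 and 278 in the last 2 with spike-in library sizes. Leaving out single libraries gave 0 to 2 (2 without library 3), 1090 to 1713 and 1308 to 1762, both lowest without library 14. Of the called genes 42.5% and 42.2% were higher in CD105+ cells, 38.1% and 31.9% with RLE scaling and 71.6% and 60.1% with spike-in library sizes. RLE moved the median of all genes by -0.17, -0.09 and -0.26. Directions of member genes turned in several settings. For CD105+ against non-immunized CD200+ cells H2-D1, B2m and Tapbp turned to -0.12, -0.13 and -0.14 with RLE, -0.13, -0.17 and -0.15 with DESeq2 and -0.37, -0.20 and -0.0406 with limma voom. With spike-in library sizes H2-K1, Tap1, Tap2 and Psmb8 turned to 0.30, 1.48, 0.45 and 0.45 in that comparison, and H2-K1, B2m, Tap1, Tap2, Psmb8 and Nlrc5 to 1.00, 1.46, 0.64, 0.89, 0.81 and 1.21 against arthritic CD200+ cells. B2m between the CD200+ groups turned to -0.29 with spike-in sizes, -0.19 with limma voom and -0.41 without the libraries over 80% spike-ins. Without those libraries B2m was 0.21 and -0.20 in the comparisons with CD105+ cells, Tap1 0.0411 and the H2-D1 to B2m ratio 0.12 against non-immunized cells. B2m against arthritic CD200+ cells was 0.0149 without a filter and 0.0589 with the filtered table's genes, and Tap1 against non-immunized cells 0.0094, 0.15 and, with only those 2 groups, 0.0182. Leaving out single libraries, values changed sign within these ranges: between the CD200+ groups B2m -0.17 to 0.75, Psmb8 -0.87 to 0.67, Nlrc5 -2.27 to 0.0598 and the Psmb8 to Psmb5 ratio -0.66 to 0.21; from arthritic CD200+ to CD105+ cells H2-K1 -0.49 to 0.0135, B2m -0.32 to 0.0949, Tap2 -0.77 to 0.17, Psmb8 -1.07 to 0.0445, Nlrc5 -1.11 to 0.50 and the H2-K1 to B2m ratio -0.42 to 0.29; from non-immunized CD200+ to CD105+ cells H2-D1 -0.22 to 0.35, B2m -0.20 to 0.72, Tap1 -0.30 to 0.57, Tapbp -0.41 to 0.43, Psmb8 -1.23 to 0.0399 and the H2-D1 to B2m ratio -0.97 to 0.12. The cause was not tested. Nlrc5 had 0 counts in 3 libraries and Psmb9 in 1.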

Other observations

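H2-T24, a further non-classical class I gene, was at 20.7, 21.5, 7.08, 11.2 and 16.7 CPM in CD105+ libraries and at 0 to 4.56 CPM in the 9 CD200+ libraries. Its ranges were apart in both comparisons, as for 10.4% and 12.5% of all genes, but it did not pass the test across all genes (edgeR adjusted p = 0.239 and 0.175), and it was singled out after its values were seen.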
